A study of Mus musculus with 11 samples.

Results

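The phagocyte NADPH oxidase is described here through 6 of its subunit genes, Cybb, Cyba, Ncf1, Ncf4, Rac1 and Rac2, which were taken by symbol from a table of 55486 genes and each matched 1 row. The RNA came from eosinophils of FVB/N mice whose mammary tumours had spread, collected on day 21 of treatment by heart puncture and red cell lysis. The sorted cells were alive, positive for CD45, CD11b and F4/80, negative for CD3, low for Ly6g and high in side scatter. The treated group of 7 mice had received cisplatin, a DNA-crosslinking drug, plus checkpoint blockade by antibodies to PD1 and to CTLA4, and the control group of 4 mice had received control antibody alone. Each mouse gave 1 Smart-seq2 library, which covers whole transcripts from little input RNA.

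The oxidase moves electrons from NADPH across a membrane to oxygen and so makes superoxide, the first product of the respiratory burst. Cybb (gp91phox, also called NOX2) carries the electron path and Cyba (p22phox) stabilises it, and together they form the flavocytochrome of the membrane. Cytosolic subunits, among them Ncf1 (p47phox) and Ncf4 (p40phox), join it on activation, with a Rac GTPase as the last switch. Eosinophils are known for a strong burst that is released largely at the cell surface, where eosinophil peroxidase uses the hydrogen peroxide that follows.

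Library totals ran from 5356118 to 8016658 counts in the treated and from 3733156 to 6721060 counts in the control group. The haemoglobin genes took 28.2% of counts in control 3 and 20.1% in control 4, against 1.06% in control 1, 0.165% in control 2 and 1.16% to 4.42% in treated libraries, and the subunit results are therefore also given without these 2 libraries. Eosinophil markers were present throughout, with 9 of 10 detected in all 11 libraries and sums of 3722 to 10730 CPM (counts per 1000000) in treated and 4545 to 10900 CPM in control libraries. Of 11 neutrophil markers 4 were detected in every library, and they summed to 5493 to 13520 CPM in treated and 6176 to 12090 CPM in control libraries, above the eosinophil sum in 9 of 11 libraries. Most of that sum was Retnlg, at 4929 to 13380 CPM. Ngp reached 876 CPM and S100a8 ran from 3.06 to 986 CPM, while Ly6g was at 0 in 8 libraries and Elane at 0 in 10. Monocyte and macrophage markers, of which 6 of 12 were detected in every library, summed to 1611 to 13970 CPM in treated and 916 to 11130 CPM in control libraries. Neutrophils and monocytes also use this oxidase, and their part in the levels below was not tested.

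The comparison asked how the combination treatment altered the oxidase genes of blood eosinophils. None of the 6 subunits passed the test for a difference between treated and control mice, and the groups overlapped for every one of them. Ncf1 (log2 fold change 0.07 ± 0.25, SE), Rac2 (0.02 ± 0.21) and Cybb (-0.03 ± 0.30) lay close to 0, and Cyba (-0.33 ± 0.23), Ncf4 (-0.34 ± 0.24) and Rac1 (-0.41 ± 0.45) lay below it. With control 3 and control 4 left out, the values were -0.037 for Ncf1, 0.10 for Rac2, -0.0018 for Cybb, -0.41 for Cyba, -0.23 for Ncf4 and 1.26 for Rac1. A positive log2 fold change means a higher level in treated mice.

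By edgeR's quasi-likelihood test with Benjamini-Hochberg adjustment over 11389 genes, 0 of 6 subunits passed the threshold of 0.05, at adjusted p from 0.860 for Ncf4 to 0.994 for Cybb, and 0% of all tested genes were called. At an unadjusted p under 0.05 there were again 0 of 6 subunits, against 6.82% of all genes, and DESeq2 also called 0 of 6, against 0.611% of the genes it tested. Non-overlapping groups were found for 0 of 6 subunits and for 0.94% of all genes. The median fold change of the 6 was -0.18, against 0.03 over all genes tested. The 95% intervals hold for the main fit only and do not bound the difference under other settings. The narrowest, for Rac2, ran from -0.43 to 0.47 and the widest, for Rac1, from -1.38 to 0.56. Over 22 other settings Rac2 ran from -0.047 to 0.37, inside its interval, and Rac1 from -0.88 to 1.26, beyond its upper end. Cyba and Ncf1 also had values outside their intervals, whereas Cybb and Ncf4 did not. In bulk samples fewer cells of a type and less RNA per cell cannot be told apart.

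**Figure D1:**
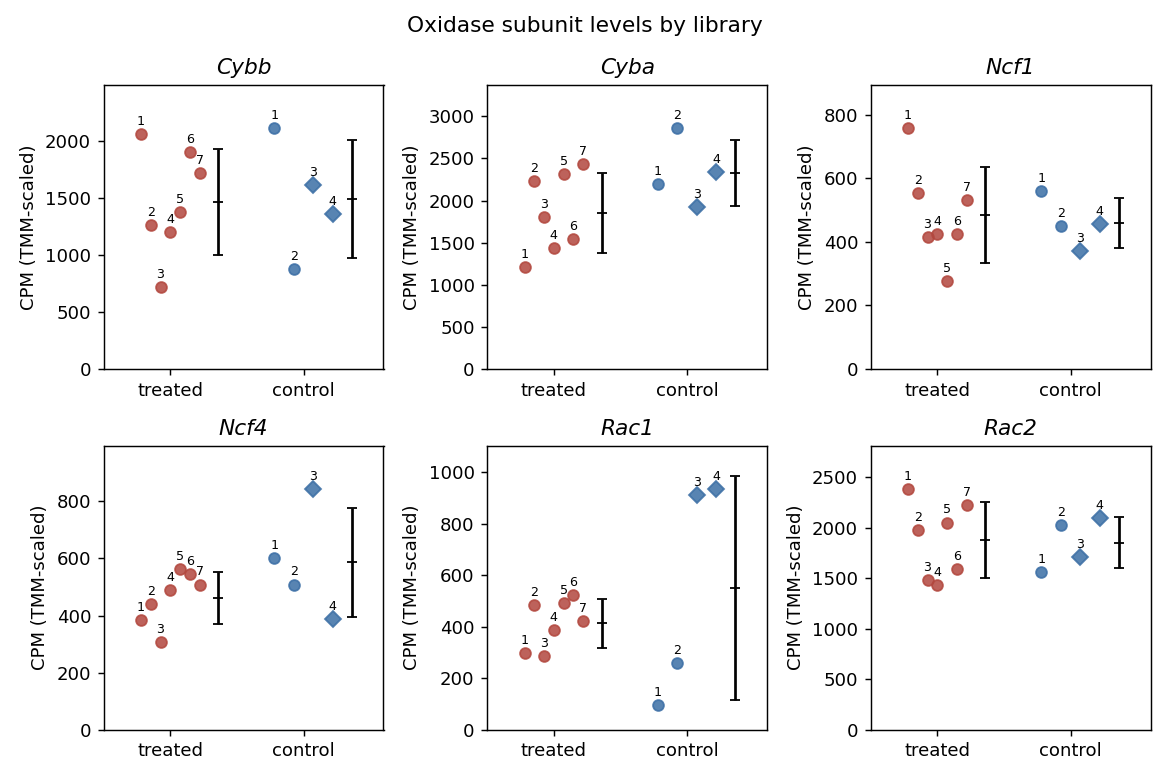
TMM-scaled CPM (vertical axes, from 0) of each subunit in the 7 treated and 4 control libraries, numbered by replicate, with the mean and SD as bars and control 3 and control 4 as diamonds. The groups overlap in all 6 panels, and in the Rac1 panel control 3 and control 4 stand at 911 and 935 CPM, above every other library.

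Of the membrane pair, Cybb (chromosome X, 9435252 to 9487771, GRCm38, minus strand) ran from 721 to 2057 CPM in treated libraries, with a median of 1374 CPM. In control 1 to control 4 it stood at 2108, 876, 1610 and 1356 CPM. The highest value of all was thus a control and the lowest, in treated 3, a treated library, and the 95% interval of the log2 fold change ran from -0.66 to 0.61. Treated 3 was also the lowest treated library for Ncf4 and Rac1, and its eosinophil markers summed to 3722 CPM, the lowest of all 11 libraries, with B cell markers at 5577 CPM.

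Cybb is a textbook target of the myeloid factor PU.1 acting with interferon regulatory factors, so its start region was searched for the core GAGGAA and for the joint element in which GGAA is followed after 2 free bases by GAAA, on both strands, from 250 bases before to 50 after the start. The RefSeq promoter table (GRCm38.p6) held Cybb, Cyba and Ncf1, and only Cybb among these 3 had a match, 1 of each kind, which overlap. The window chrX:9469302-9469331 is shown on the strand of the gene, with the joint element, which reads on the opposite strand, in capitals and starting 4 bases into the transcript.
Cybb: aagctgctgtTTTCATTTCCtcatcagaag
Of 32851 promoter windows of this length 2.72% held the joint element and 28.3% the core, and a match is a description of letters, not evidence of binding. Spi1, which encodes PU.1, stood at 1134 ± 337 CPM over the 7 treated mice (mean ± SD, here and for each CPM pair below) and 1115 ± 390 CPM over the 4 controls.

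Cyba (chromosome 8, 122424776 to 122432930, minus strand) ran from 1210 to 2439 CPM in treated libraries, with a median of 1809 CPM, and the controls, from control 1 to control 4, were at 2198, 2859, 1928 and 2336 CPM. The top of the range was control 2, and 4 of 7 treated libraries (treated 1, treated 3, treated 4 and treated 6) lay below the lowest control. The mean was 1854 ± 479 CPM over the 7 treated mice and 2330 ± 391 CPM over the 4 controls, and the difference did not pass the edgeR test (adjusted p = 0.861, 95% interval of the log2 fold change -0.83 to 0.17).

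Among the cytosolic subunits, Ncf1, which organises the complex once phosphorylated (chromosome 5, 134220053 to 134229625, minus strand), ran from 275 to 758 CPM in treated libraries, with a median of 426 CPM. In control 1 to control 4 it stood at 561, 451, 371 and 455 CPM, inside the treated range. Treated 1 was the highest library and treated 5 the lowest. Ncf1 shares 408 bases of exon with Gtf2ird2 on the opposite strand, and reads there cannot be told apart if strand was not used in counting.

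Ncf4, whose PX domain binds a phosphoinositide of phagosome membranes (chromosome 15, 78244801 to 78262580, plus strand), ran from 306 to 563 CPM in treated libraries, with a median of 488 CPM. The controls stood at 603, 509, 843 and 389 CPM. Control 3 was the highest library, and without it the log2 fold change went from -0.34 to -0.09.

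Rac2, the Rac GTPase restricted largely to blood cells (chromosome 15, 78559167 to 78572783, minus strand), ran from 1431 to 2384 CPM in treated libraries, with a median of 1982 CPM, and the controls were at 1565, 2024, 1712 and 2098 CPM. Its coefficient of variation was 20.1% in treated libraries, next to 19.9% for Ncf4, and 13.7% in controls, the lowest of the 6 subunits there, with Rac1 at 79.0%.

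Rac1, the widely expressed Rac GTPase (chromosome 5, 143503634 to 143528036, minus strand), ran from 286 to 524 CPM in treated libraries, with a median of 421 CPM. In control 1 to control 4 it stood at 97.5, 259.8, 911 and 935 CPM. The treated values thus fell in the gap between the controls, with control 1 and control 2 below every treated library and control 3 and control 4 above every one. The latter 2 are the libraries rich in haemoglobin reads, and their platelet markers summed to 6564 and 5652 CPM, against 270 to 3027 CPM elsewhere. Their eosinophil markers summed to 4886 and 4545 CPM of a total that includes haemoglobin reads, inside the treated range. Siglecf, Il5ra and Adgre1 were lowest of all in control 3, whereas Prg2 and Ear1 were highest there (named after their values were seen). Monocyte and macrophage markers summed to 11130 CPM in control 3 and 2359 CPM in control 4. The part of red cell or platelet RNA, or of other cell types, in the Rac1 level was not tested.

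The direction of the Rac1 difference rested on these libraries. With control 3 and control 4 left out, it went from -0.41 to a log2 fold change of 1.26 ± 0.39 (SE; 95% interval 0.42 to 2.09; unadjusted p = 0.00618 and adjusted p = 0.346, edgeR), with 0% of 13012 genes called after adjustment and 8.57% at an unadjusted p under 0.05. In that fit treated libraries ran from 313 to 586 CPM and the 2 controls stood at 105 and 274 CPM, groups that do not overlap, as was true with treated higher of 4.3% of all genes. Without control 1 alone the log2 fold change was -0.76, without control 2 alone -0.64, without control 3 alone -0.0024 and without control 4 alone -0.0049. In the fit without control 1 the unadjusted p of Rac1 was also under 0.05 (adjusted p = 0.434, edgeR), with treated lower.

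**Figure D2:**
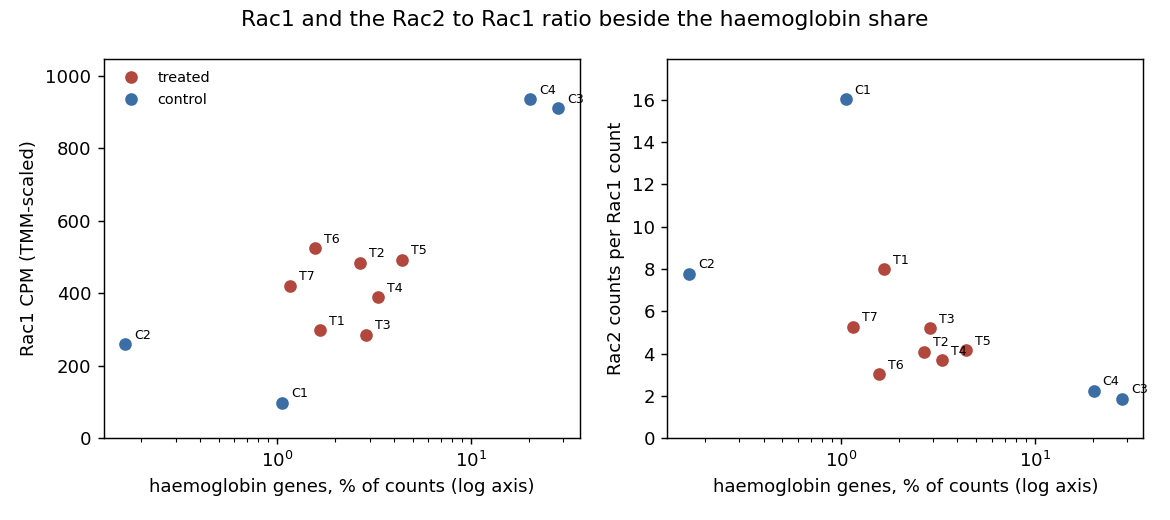
Left, Rac1 in TMM-scaled CPM, and right, Rac2 counts per Rac1 count, against the share of counts on the haemoglobin genes (log axis), with 1 point per library (T treated, C control, by replicate). Control 3 and control 4 lie far to the right with the highest Rac1 and the lowest ratios, 1.88 and 2.24, and control 1 has the highest ratio, 16.0.

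The Rac genes are close copies, so the chance that reads of 1 were counted for the other was examined in the GENCODE M21 transcripts. Their coding sequences of 579 bases were identical at 446 bases (77.0%), with no identical run longer than 29 bases, and the 2 genes shared no stretch of 50 bases. The end shown here encodes the membrane-binding tail that sets the copies apart, with 28 of the last 60 coding bases different. These bases, stop codon included, are shown with the differing ones in capitals.
Rac1: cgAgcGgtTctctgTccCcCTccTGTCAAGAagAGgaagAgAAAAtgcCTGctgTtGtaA
Rac2: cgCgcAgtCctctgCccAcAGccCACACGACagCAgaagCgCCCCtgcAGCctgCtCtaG
For Rac1 a neighbour matters more than its paralog. Of its 50-base stretches 50.3% are shared, on the opposite strand, with Daglb, a diacylglycerol lipase gene, across 2309 bases of exon. Daglb itself was low, at 28.6 to 97.4 CPM in treated libraries while its controls were at 69.4, 156, 97.4 and 66.9 CPM. Reads in the shared bases may have been lost or assigned to either gene, so the level of Rac1 is uncertain to that degree. GENCODE also lists a Rac1 transcript with a coding sequence of 636 bases, and counts per gene do not separate it.

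Levels of different subunits can be compared only per length, and CPM per kilobase of annotated exon was used for this. Cyba led, at 1951 ± 473 CPM per kilobase (SD, n = 11 libraries), followed by Rac2 at 602 ± 104. Cybb stood at 253 ± 78.4 and Ncf4 at 251 ± 70.2 CPM per kilobase, then Ncf1 at 129.6 ± 34.2 and Rac1 at 103 ± 57.6. The 6 subunits ranked between 22 (Cyba) and 469 (Rac1) from the top among 11380 tested genes with a length, so all were among the more abundant transcripts of these cells.

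Cyba was above Rac2 and Rac2 above Cybb in 11 of 11 libraries, and Ncf4 was above Ncf1 in 10 of 11. Cybb and Ncf4 did not differ beyond their spread, with Cybb higher in 5 of 11 libraries, nor did Ncf1 and Rac1, with Ncf1 higher in 7 of 11. An alternative chosen after seeing the data kept all counts of a gene but divided by only the exon bases that no other gene shares. Rac1 then rose to 212 ± 118 CPM per kilobase and passed Ncf1, at 145.8 ± 38.5. These values are too high to the extent that reads in the shared bases were counted for the gene. The membrane partners differed 7.70-fold in level per kilobase of annotated exon. Per kilobase of the longest coding transcript Cyba stood at 2724 and Cybb at 310 CPM, with Ncf4 at 346 CPM. The fold and the order of Cybb and Ncf4 thus depend on the length used.

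**Figure D3:**
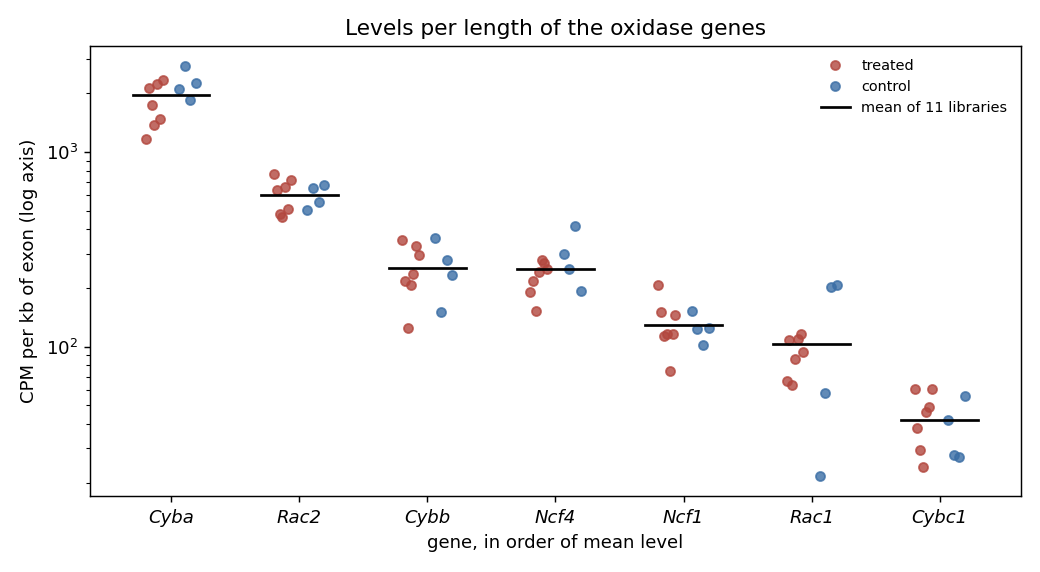
CPM per kilobase of exon (log axis) for the 6 subunits and for Cybc1, in order of the mean of the 11 libraries (black lines), with 1 point per library. Cyba stands at 1951 and Rac2 at 602 on average, and the treated and control points overlap for every gene.

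Ratios within a library do not depend on library scaling, and 3 were compared between the groups. Per count of Cyba there were 0.399 to 1.70 counts of Cybb in treated and 0.306 to 0.959 in control libraries, a log2 difference of 0.33. Per count of Ncf4 there were 0.489 to 1.97 counts of Ncf1 in treated and 0.440 to 1.17 in control libraries, a difference of 0.34, which was 0.049 without control 3 alone. Per count of Rac1 there were 3.03 to 7.98 counts of Rac2 in treated libraries, while the controls stood at 16.0, 7.79, 1.88 and 2.24, and the difference was -0.07. The ranges overlapped for each ratio. By exact two-sided permutation over 330 splits, p was 0.494, 0.412 and 0.912 in that order (adjusted over the 3 ratios, 0.741, 0.741 and 0.912).

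With control 3 and control 4 left out, the difference was 0.51 for Cybb to Cyba and 0.17 for Ncf1 to Ncf4. That of the Rac2 to Rac1 ratio went from -0.07 to -1.29 (exact two-sided permutation p = 0.0556 over 36 splits, adjusted p = 0.167 over the 3 ratios), which does not pass the threshold. Passing after adjustment was out of reach for this ratio, given so few splits and the p of the other ratios (0.472 and 0.722, same test). The adjusted value therefore cannot decide whether the ratio differed. Each of the 7 treated libraries had a lower Rac2 to Rac1 ratio than control 1. Treated 1, at 7.98, had a higher one than control 2, at 7.79.

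The correlations between subunits from mouse to mouse were of mixed sign. Of 15 pairs of subunits within the 7 treated libraries, 11 had a positive Pearson r on the log2(CPM + 1) scale, and 0 passed after adjustment over the 15 pairs by exact permutation. The strongest was Ncf4 with Rac1 (r = 0.864, exact permutation p = 0.0117, adjusted p = 0.176; Spearman rho 0.857, exact permutation p = 0.0238, adjusted p = 0.357). Without the 2 libraries farthest from the median of Ncf4 r was 0.316 over the other 5. Leaving these out narrows the range of Ncf4, which can lower r by itself, and this value was not tested. Cybb and Cyba, whose proteins depend on each other for stability, had r = -0.234 (exact permutation p = 0.631, adjusted p = 0.728) and rho -0.179 (exact permutation p = 0.713, adjusted p = 0.823).

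The genes most like each subunit were picked as the 2 with the highest Pearson r over the 11 libraries among all tested genes, and as the highest of many these values have no p. They were Yod1 (r = 0.919) and Eno1 (0.889) for Cybb, Mrpl33 (0.954) and Frg1 (0.933) for Cyba, and Svil (0.884) and Mctp2 (0.861) for Ncf1. For Ncf4 they were Afg3l1 (0.940) and Gm4865 (0.912, but low, at 1.47 to 6.81 CPM), and for Rac2 Eloa (0.942) and Abcd2 (0.929). Within the 7 treated libraries, which were among the 11 used to pick them, these genes had r of 0.853 or more with their subunit. The nearest to Rac1 were Sh3bgrl2 (r = 0.957, and 0.476 within the treated libraries) and Lgmn (0.927, and 0.802 within them). No gene was shared between subunits.

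The other genes of the pathway were taken from 5 lists. Their counts stand beside those over all 11389 genes tested, of which 5900 had a fold change above 0 and 5489 below, 6.82% an unadjusted p under 0.05 and 0.94% groups that do not overlap. Of the other oxidase and assembly genes 1 of 10 was tested, Cybc1, and 0 passed. Cybc1, a chaperone that Cybb and Cyba need for their maturation, ran from 102 to 255 CPM with a median of 194 CPM in treated libraries, and the controls were at 176, 117, 114 and 234.5 CPM. The ranges overlapped. The other 9 genes, which include Nox1, Nox3, Nox4, Duox1 and Duox2 of the other oxidases, were too low for the test.

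Of 21 Rac and Rap GTPases and their regulators 20 were tested and 0 passed, with 11 fold changes above 0 and a median of 0.04, against 0.03 over all genes. The most abundant by CPM were Arhgdib, which holds Rac in the cytosol, at 2456 ± 591 CPM over the 7 treated mice and 2775 ± 292 CPM over the 4 controls, then Cdc42 (1514 ± 251 and 1507 ± 203 CPM) and Rap1b (463 ± 139 and 418 ± 144 CPM). Prex1, an exchange factor that loads Rac with GTP, was the only one with non-overlapping groups and with an unadjusted p under 0.05 (log2 fold change 0.78 ± 0.24, SE; adjusted p = 0.626, edgeR), and it was singled out after its values were seen.

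Of 19 kinases and lipid enzymes that act on the oxidase all were tested and 0 passed. Their fold changes were above 0 for 16 of 19 with a median of 0.29, and 3 had an unadjusted p under 0.05, which are Syk, Pik3cd and Pak2 (named after their values were seen), against 6.82% of all genes. All 9 B cell markers had fold changes above 0 as well, from 0.72 to 2.28 with none passing adjustment, and they summed to 1066 to 6322 CPM in treated and 415 to 2628 CPM in control libraries. Monocyte and macrophage markers went both ways, from -0.56 for F13a1 to 6.75 for C1qc (named after their values were seen), with none passing adjustment. The part of B cells or of monocytes and macrophages in the levels of these kinases was not tested. Prkcd, a protein kinase C that phosphorylates Ncf1, stood at 740 ± 182 CPM over the 7 treated mice and 573 ± 75.2 CPM over the 4 controls. Syk, a tyrosine kinase below immune receptors, stood at 396 ± 142 and 239 ± 35.7 CPM (log2 fold change 0.73 ± 0.27, SE; adjusted p = 0.626, edgeR), and Akt1 at 215 ± 65.7 and 239 ± 65.8 CPM.

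Of 8 genes of charge balance and superoxide handling 7 were tested and 0 passed, with 6 fold changes below 0 and a median of -0.32, and 1 of 7, Sod1, had an unadjusted p under 0.05, against 6.82% of all genes. Cat, or catalase, stood at 789 ± 309 CPM over the 7 treated mice and 824 ± 305 CPM over the 4 controls. Prdx6, a peroxiredoxin that also binds the oxidase, stood at 377 ± 132 and 597 ± 341 CPM, and its log2 fold change went from -0.66 to 0.26 without control 3 and control 4. Sod1, the cytosolic superoxide dismutase, stood at 187 ± 62.1 and 273.5 ± 27.1 CPM (log2 fold change -0.55 ± 0.24, SE; adjusted p = 0.693, edgeR).

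Of 9 transcription factors known to bind oxidase subunit genes all were tested and 0 passed, with 8 fold changes above 0 and a median of 0.35. Unadjusted p was under 0.05 for Irf2 and Nfkb1, 2 of 9 against 6.82% of all genes, and Irf2 alone had non-overlapping groups, 1 of 9 against 0.94% (both named after their values were seen). After Spi1, given with Cybb, the most abundant were Irf1 at 189 ± 75.4 and 181 ± 59.6 CPM and Cebpe, a granulocyte factor, at 154 ± 52.4 and 198 ± 102 CPM in treated mice and in controls, in that order. Direction and medians of these lists describe them and were not tested.

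**Figure D4:**
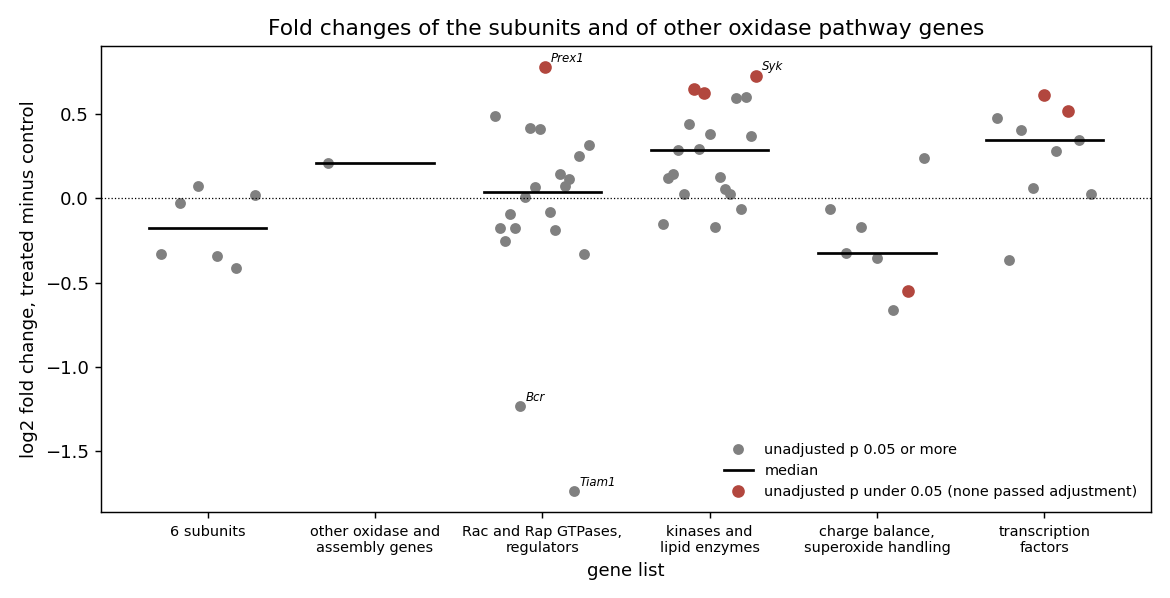
Log2 fold changes, treated minus control, of the 6 subunits and of the tested genes of 5 other oxidase pathway lists, with list medians as black lines. Red points have an unadjusted p under 0.05, none passed adjustment over all genes, and the medians run from -0.32 to 0.35.

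The identifiers in the table header begin with 19 in treated and 20 in control libraries, which cannot be told apart from the treatment. Their letters are KDV in treated 1 and all controls and VIS in the other treated libraries. With the letters as a covariate, which leaves treated 1 to carry the contrast, the log2 fold changes were 0.47 for Cybb, -0.95 for Cyba, 0.72 for Ncf1, -0.61 for Ncf4, -0.88 for Rac1 and 0.37 for Rac2, and 0 subunits passed.

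**Figure D5:**
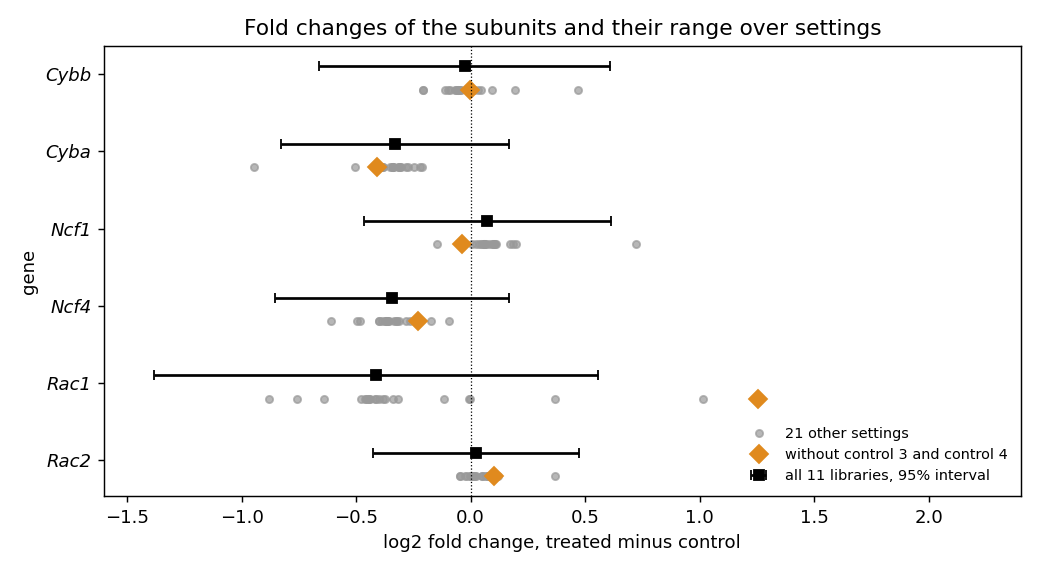
Log2 fold change of each subunit with its 95% interval over all 11 libraries (squares), and below it the value in 22 other settings (circles, and a diamond without control 3 and control 4). Every interval includes 0, and Rac1 spans the widest range of settings, from -0.88 to 1.26.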

How the data were processed

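The deposited table holds unnormalised read counts by Ensembl gene for 11 libraries, each from 1 mouse. The submitters' processing notes name HISAT2 2.10, SAMtools 1.15.1 and bcl2fastq 2.20.0.422, and the build GRCm38. Counter, strand setting and annotation version: not given in the sources used here. From these counts, 1 unnamed row with 0 counts was left out, and 55140 of 55486 genes matched GENCODE M21 by identifier. Groups came from the sample titles. The main test was that of edgeR 4.0.16, run in R 4.3.3 (TMM, filterByExpr, robust quasi-likelihood test), in which all 6 subunits passed the filter on low counts, and printed CPM are TMM-scaled except cell type markers, single or summed, which are CPM of the library total. Alternatives were other scalings and filters, DESeq2 1.42.0, limma 3.58.1 (voom with quality weights), covariates, a replicate block and leaving out libraries. Ratios used a pseudocount of 0.5 counts and were compared by exact permutation in Python 3.11.15 with scipy 1.17.1. The members, lists and tests were chosen with earlier results of these data known. The text names all 6 subunits, up to 3 genes with the highest mean CPM per list, and 2 genes per subunit by likeness, and any others are marked as named after their values were seen. Some genes of the pathway are not reported here and were left out of the lists. The scripts were tested on simulated data.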

Additional observations from a re-analysis of the deposited data

Results flagged for a closer look

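Among 44 groups of values examined, 2 held a library that stood apart from the rest of its group by Dixon's criterion, and chance alone gives about 1 in 20. Sod1 stood at 319 CPM in treated 3, against 198 CPM in the next treated library, and Syk at 679 CPM in treated 3, against 407 CPM. In treated 3 B cell markers summed to 5577 CPM, within the treated range of 1066 to 6322 CPM. Monocyte and macrophage markers summed to 6842 CPM there, within the treated range of 1611 to 13970 CPM. The part of either in the Sod1 and Syk values was not tested. None of the 6 subunits had such a library in either group, and none of the 3 ratios did.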

How the results depend on the processing

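No setting called any of the 6 subunits, and over the 22 settings other than the one reported their lowest adjusted p was 0.346 (Rac1, without control 3 and control 4, edgeR). Over the whole table DESeq2 called 79 genes, against 0 by edgeR. The direction of several fold changes turned, both small ones and those of Rac1 (-0.41 in the main fit) and Prdx6 (-0.66). With control 3 and control 4 left out it was -0.037 for Ncf1, 1.26 for Rac1, 0.50 for Cat and 0.26 for Prdx6. With detected genes as a covariate it was -0.15 for Ncf1, 1.01 for Rac1, 0.061 for Arhgdib, 0.48 for Cat and 0.012 for Prdx6. With the letters as a covariate it was 0.47 for Cybb, -0.56 for Rap1b, 0.40 for Cat, 0.51 for Akt1 and -0.018 for Spi1. With limma-voom it was 0.047 for Cybb, 0.37 for Rac1 and -0.015 for Cdc42, and with no filter 0.0011 for Cybb. Cdc42 was -0.0091 with DESeq2 size factors, -0.0057 with the DESeq2 test, -0.0074 with the stricter filter and -0.0046 with upper-quartile scaling. The cause of these turns was not tested. Other values moved without turning when control 3 and control 4 were left out, to 0.45 for Spi1, 0.49 for Irf1, 0.55 for Rap1b, 0.37 for Cybc1 and -0.84 for Cebpe, and to -1.29 for the log2 ratio of Rac2 to Rac1.

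No pairing of mice by replicate number was seen. Deviations of treated and control libraries of the same number correlated at -0.11 to 0.02. No control library correlated best with its own number, but so few libraries cannot exclude pairing. With the replicate block, which leaves 3 residual degrees of freedom, 0 genes were called, and the log2 fold change was -0.047 for Rac2, -0.13 for Cdc42, -0.0069 for Cybc1 and -0.23 for Spi1.

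Leaving out each library in turn gave -0.21 to 0.20 for Cybb, -0.048 to 0.19 for Ncf1, -0.047 to 0.11 for Rac2, -0.76 to -0.0024 for Rac1, -0.89 to -0.25 for Prdx6, -0.27 to 0.0013 for Akt1, -0.25 to 0.14 for Cat, -0.056 to 0.11 for Cdc42, -0.11 to 0.30 for Irf1, -0.021 to 0.39 for Rap1b and -0.14 to 0.29 for Spi1. It gave -0.0030 to 0.55 for the log2 ratio of Cybb to Cyba, 0.049 to 0.52 for that of Ncf1 to Ncf4 and -0.52 to 0.51 for that of Rac2 to Rac1. Within the libraries with the letters KDV the differences were 1.47 for Cybb to Cyba, 1.29 for Ncf1 to Ncf4 and 0.74 for Rac2 to Rac1, from 1 treated library. The difference for Rac2 to Rac1 was -0.07 over all libraries, so its direction turned. With CPM of the library total r was -0.101 for Cyba and Rac2, -0.361 for Ncf4 and Rac2 and -0.391 for Rac1 and Rac2. Each subunit had 769 counts or more in every library. Each mouse gave 1 library, so differences between mice, sorts and libraries cannot be told apart.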
